A study of Mus musculus with 9 samples.

Results

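The 10 genes described here are regulators and stretch targets of the YAP/TAZ pathway in mouse lung. They were taken by name: Yap1, Wwtr1 (which encodes TAZ), Tead1, Lats1, Lats2, Amotl2, Ajuba, Ctgf (also called Ccn2), Cyr61 (also called Ccn1) and Ankrd1, which makes 10 of the 27203 gene IDs in the table. RNA-seq was done on the lungs of male C57BL/6 mice of 6 to 8 weeks, in 3 groups of 3 libraries. Mice of both VILI groups received tidal volumes of 20 ml/kg for 4 hours under ketamine, xylazine and the muscle relaxant pancuronium, with no positive end-expiratory pressure, and were killed 0 hours (VILI 0 hours) or 6 hours (VILI 6 hours) after it (VILI, ventilator-induced lung injury). Mice of the control group were intubated and not ventilated. Stretch, the hours on the ventilator and the relaxant therefore cannot be told apart in a comparison with control.

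YAP and TAZ are coactivators that lack a DNA-binding domain and act on genes through TEAD transcription factors. The Hippo kinases, of which LATS1 and LATS2 are the last step, phosphorylate YAP and TAZ and keep them out of the nucleus. Spreading, tension and stretch favour nuclear YAP and TAZ, and Ctgf, Cyr61, Ankrd1, Amotl2 and Ajuba are commonly read as their target genes. The activity of YAP and TAZ is set largely by phosphorylation and location, which mRNA levels do not show.

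TEAD factors bind the letters GGAATG, so the promoters of the 10 genes were read for them. A window of 250 bases before to 50 bases after the start was found in RefSeq (GRCm38.p6) for 8 of the 10 genes, in 10 windows, with none for Tead1 or Ctgf. The letters GGAATG, on either strand, stood in 8 of the 10 windows (7 of the 8 genes, Lats1 being the exception), and in 14.7% of all 32851 windows of that length. The windows of Wwtr1 overlap each other and hold the same site, which is thus counted more than once. Because the genes were chosen by name as genes of this pathway, the comparison with all windows is a description. The AP-1 letters TGACTCA and the CArG box, the motif of serum response factor, were in none of the 10 windows and in 5.2% and 1.63% of all windows. The 250 bases before the start of 4 target genes follow, 5′ to 3′ on the strand of the gene, with the TEAD letters (GGAATG, or CATTCC where the motif lies on the other strand) in capitals. They are shown because these are the target genes whose levels are described below. Cyr61 at chr3:145649986-145650235 (minus strand) holds the motif 103 bases before the start, and Ankrd1 at chr19:36119845-36120094 (minus strand) holds it 210 and 123 bases before. Ajuba at chr14:54577662-54577911 (minus strand) holds it 186 and 164 bases before, and Amotl2 at chr9:102717554-102717803 (plus strand) 65 bases before.
Cyr61: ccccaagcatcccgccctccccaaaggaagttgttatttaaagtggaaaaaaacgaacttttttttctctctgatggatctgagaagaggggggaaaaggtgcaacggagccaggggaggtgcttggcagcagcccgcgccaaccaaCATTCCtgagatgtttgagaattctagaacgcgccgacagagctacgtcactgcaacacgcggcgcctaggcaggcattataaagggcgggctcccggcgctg
Ankrd1: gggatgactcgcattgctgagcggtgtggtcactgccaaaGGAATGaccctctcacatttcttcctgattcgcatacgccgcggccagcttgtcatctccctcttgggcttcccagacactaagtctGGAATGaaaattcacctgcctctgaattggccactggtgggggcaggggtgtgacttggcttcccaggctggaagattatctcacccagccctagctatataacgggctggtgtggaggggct
Ajuba: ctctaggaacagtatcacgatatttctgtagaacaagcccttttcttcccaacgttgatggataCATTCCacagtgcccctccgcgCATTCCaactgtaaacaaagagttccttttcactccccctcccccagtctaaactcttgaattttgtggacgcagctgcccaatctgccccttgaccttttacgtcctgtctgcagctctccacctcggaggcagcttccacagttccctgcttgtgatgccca
Amotl2: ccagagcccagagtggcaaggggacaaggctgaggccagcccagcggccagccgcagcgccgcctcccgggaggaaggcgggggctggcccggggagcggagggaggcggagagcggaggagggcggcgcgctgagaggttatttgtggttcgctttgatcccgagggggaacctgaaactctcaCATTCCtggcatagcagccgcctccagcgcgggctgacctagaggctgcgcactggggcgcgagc

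All 10 genes were expressed in all 9 libraries, from 5.91 FPKM (Ankrd1 in VILI 0 hours library 2) to 120.0 FPKM (Cyr61 in VILI 0 hours library 3). FPKM counts fragments relative to transcript length and library size, so levels can be compared between genes, and a gene's level is the sum over its rows (transcripts) in the table. In control lungs the mean level ran from Amotl2 (66.0 ± 15.8 FPKM, SD, n = 3) through Ctgf (55.6 ± 3.48), Wwtr1 (50.9 ± 2.67), Cyr61 (40.0 ± 5.44), Lats2 (35.0 ± 3.76), Yap1 (31.8 ± 0.393), Tead1 (24.1 ± 0.587), Lats1 (18.9 ± 0.909) and Ajuba (14.0 ± 1.47) to Ankrd1 (11.7 ± 1.20). Neighbours in this order whose control libraries overlapped were Amotl2 and Ctgf, Ctgf and Wwtr1, Cyr61 and Lats2, and Ajuba and Ankrd1. Over the 9 libraries Yap1 varied least (highest over lowest library 1.16) and Cyr61 most (5.18).

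The libraries had neutrophil markers at a summed 45.6 to 53.3 FPKM in control, 541 to 967 at 0 hours and 446 to 1862 at 6 hours, and all 6 markers were higher at both times. Their part in the results below was not tested. Because whole lung was sequenced, fewer cells of a type and less RNA per cell cannot be told apart. The summed markers of alveolar type 1 and type 2 cells, endothelium, fibroblasts, smooth muscle, mesothelium and macrophages overlapped between control and ventilated libraries, except those of macrophages at 0 hours (27.1 to 29.2 against 30.1 to 40.7 FPKM) and of alveolar type 2 cells at 6 hours (11730 to 12960 against 10740 to 11520 FPKM). Single markers called against control were Hopx, Pdpn, Dcn and Siglecf (higher) and Tek and Col1a2 (lower) at 0 hours, and Hopx, Pdpn, Wt1 and Cd68 (higher) and Clic5, Lamp3, Tek, Tie1 and Col1a2 (lower) at 6 hours, with none for cardiac or smooth muscle. With the medians of the libraries aligned, 3 of the 4 smooth muscle markers were called higher at each time (Acta2 and Cnn1 at both, Tagln at 0 hours, Myh11 at 6 hours), Cd68 at 0 hours and Msln and Siglecf at 6 hours were gained, and Col1a2, Clic5 and Lamp3 were lost, with none for cardiac muscle. Of all genes, 10% were called higher at 0 hours and 11.7% at 6 hours with this alignment. VILI 0 hours library 3 stood apart in its summed cardiac muscle markers, at 387 FPKM against 172 to 208 in the other 8 libraries. VILI 6 hours library 1 had the lowest neutrophil sum of the ventilated libraries and mesothelial markers at 88.3 FPKM against 30.8 to 44.9 elsewhere. A gene is called here at an unadjusted limma P under 0.05, the threshold of the study, and adjusted p-values are Benjamini-Hochberg over the 19378 genes tested; a level is in FPKM, a fold change on the scale of log2(FPKM + 0.1). Values given for 0 hours or 6 hours are against control unless both times are named.

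**Figure D1:**
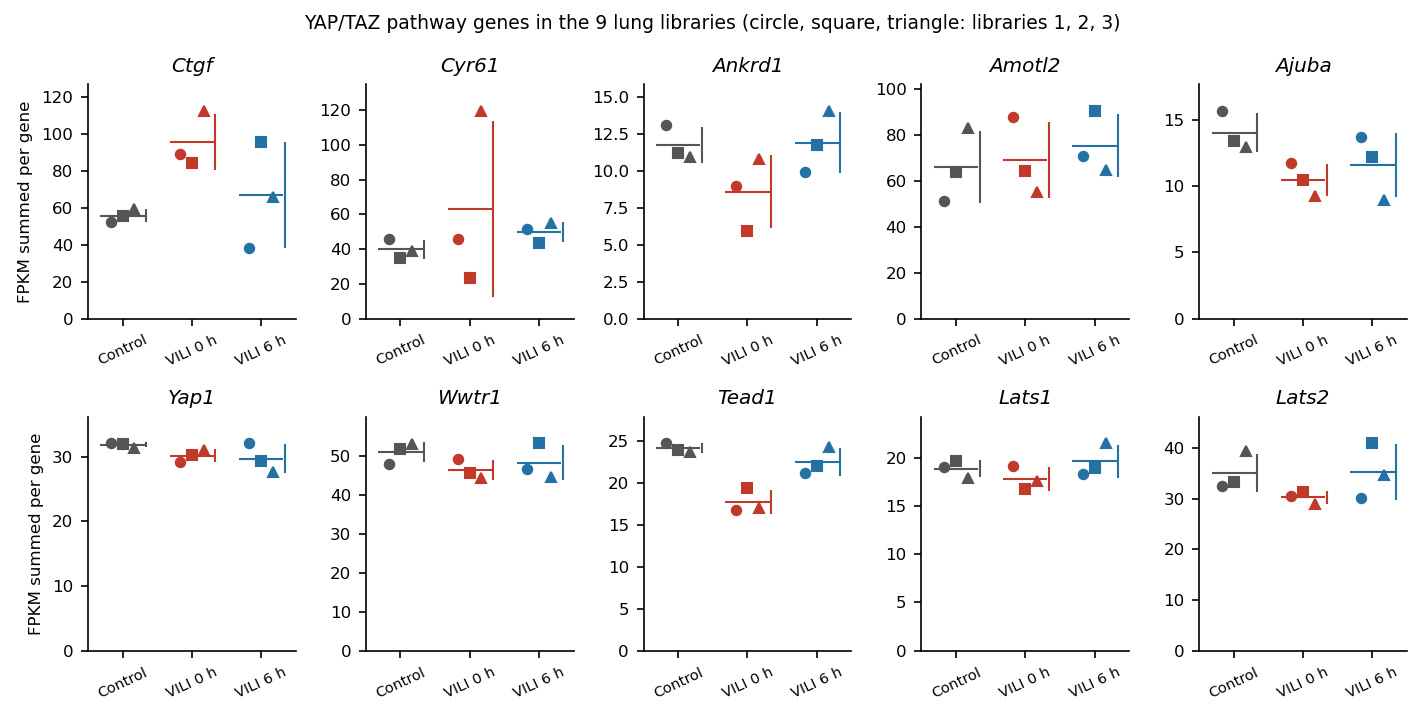
FPKM summed per gene (y axis, from 0) in the 3 libraries of each group (x axis), with the group mean (horizontal line) and SD (vertical line). Ctgf was above all control libraries in the 3 VILI 0 hours libraries and Tead1 below them, and the 3 VILI 0 hours libraries of Cyr61 lie far apart.

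In VILI 0 hours vs control, 4 of the 10 genes were called, 1 higher (Ctgf) and 3 lower (Tead1, Ajuba and Ankrd1), and none passed at an adjusted p under 0.05 in the main fit. Of all genes tested, 16.2% were called in this comparison (6.81% higher, 9.35% lower) and 0.284% passed after adjustment. With medians aligned the split turned, to 10% higher and 6.36% lower, and of the 10 genes 1 was called higher (Ctgf) and 1 lower (Tead1). The groups did not overlap in 6 of the 10 genes (Yap1, Tead1, Lats2, Ajuba, Ctgf and Ankrd1), against 33.5% of all genes, and in these the exact permutation test gave 0.1 (two-sided, n = 3 per group), the smallest p that 3 against 3 libraries allow. The median log2 fold change of the 10 genes was -0.11, and that of all genes -0.07.

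Ctgf encodes a matricellular CCN protein of connective tissue and is a usual readout of YAP activity (chr10:24595442-24598683, plus strand, GRCm38, as for the positions that follow). It was at 52.4, 55.2 and 59.3 FPKM in control, 89.3, 84.3 and 113 FPKM at 0 hours and 38.3, 95.8 and 65.9 FPKM at 6 hours. Each lung taken at 0 hours lay above each control lung, whereas the lungs taken at 6 hours ran from below to above the controls. At 0 hours the log2 fold change was 0.77 (SE 0.27, 95% interval 0.15 to 1.38, adjusted p = 0.217), a 1.70-fold rise. The call ended without Control library 1 (0.72) and without VILI 0 hours library 3, the one with high cardiac markers (0.64). At 6 hours the value was 0.16 (SE 0.27, adjusted p = 0.749), but 0.51, and called, without VILI 6 hours library 1. The 6 hours lungs stood at -0.60 against those of 0 hours (95% interval -1.22 to 0.01, adjusted p = 0.51), and at -0.91, a call, without VILI 6 hours library 2.

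Of the 3 rows of Ctgf, row 2 carried most of the sum. It stood at 42.0, 47.1 and 50.4 FPKM in control and 82.4, 77.9 and 98.7 FPKM at 0 hours. Row 3 took another course: it was at 7.56, 5.76 and 5.74 FPKM in control, 4.05, 5.17 and 8.27 at 0 hours and 3.39, 2.88 and 1.90 at 6 hours. At 6 hours all its libraries lay below those of both other groups, with log2 fold changes of -1.22 (SE 0.30) against control and -1.05 (SE 0.30) against 0 hours (adjusted over the 37300 rows tested, p-values of 0.202 and 0.526). The rows share reads and the table names no transcripts, so which form row 3 is was not determined. On the other strand, Gm15270 overlaps Ctgf, at a mean of 1.65 FPKM, and how strand entered the counting is not given in the sources used here. The genes most like Ctgf over the 9 libraries, among 14107 genes of at least 1 FPKM, were Selenop (Pearson r = 0.97), Fbxo38 (0.96) and Abca1 (0.95), given as a description.

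Cyr61, the CCN relative of Ctgf that is induced within minutes by serum and stretch, differed mainly between lungs of the same group (chr3:145646976-145649981, minus strand). It was at 45.9, 35.2 and 39.0 FPKM in control, 46.1, 23.2 and 120.0 FPKM at 0 hours and 51.6, 43.4 and 54.9 FPKM at 6 hours. The lowest and the highest of the 9 libraries were thus both VILI 0 hours. The log2 fold change was 0.34 (95% interval -0.70 to 1.38) at 0 hours and 0.32 (-0.72 to 1.36) at 6 hours, neither of them called (adjusted p = 0.759 and adjusted p = 0.709). Without VILI 0 hours library 2 the value at 0 hours was 0.90, and called, and without library 3 it was -0.28. The genes most like Cyr61 over the 9 libraries were Slc35e2 (Pearson r = 0.93), Nr4a1 (0.92) and Fos (0.91), the latter pair being immediate early genes. Fos was at 89.6 FPKM in VILI 0 hours library 3, against 14.0 to 34.9 FPKM in the other libraries, and Nr4a1 at 61.1 against 5.83 to 19.2. These correlations are a description over 9 libraries that share 3 groups.

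Ankrd1 encodes a stretch-induced ankyrin repeat protein of muscle nuclei and sarcomeres (chr19:36111961-36120099, minus strand). It was at 13.1, 11.2 and 10.9 FPKM in control, 8.96, 5.91 and 10.8 FPKM at 0 hours and 9.90, 11.7 and 14.1 FPKM at 6 hours. The lungs at 0 hours lay below the controls, narrowly for library 3, and those at 6 hours around them. The log2 fold change was -0.49 (SE 0.22, adjusted p = 0.308) at 0 hours, and 0.50 (SE 0.22, adjusted p = 0.486) for 6 hours against 0 hours. Neither call was firm: leaving out any library but VILI 0 hours library 3, VILI 6 hours library 1 or VILI 6 hours library 3 ended the first, with the smallest change, -0.25, without VILI 0 hours library 2. The second ended without any library but VILI 0 hours library 3 or VILI 6 hours library 1, with 0.26 as the smallest change. With medians of the libraries aligned, they were -0.37 and 0.51 and no longer called. The genes most like Ankrd1 were Gm37314 (r = 0.92), Pcdhb22 (0.92) and Gm43329 (0.90).

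Amotl2 binds YAP and restrains it at junctions, and Ajuba, a LIM protein, binds and inhibits LATS. Amotl2 (chr9:102716672-102733418, plus strand) ranged over 51.4 to 82.8 FPKM in control, 55.2 to 87.6 at 0 hours and 64.6 to 90.6 at 6 hours, so its groups overlapped and it was called in none of the comparisons, at log2 fold changes of 0.07 (95% interval -0.42 to 0.55) and 0.20 (-0.28 to 0.69) against control. Ajuba (chr14:54567472-54577558, minus strand) was at 15.7, 13.4 and 13.0 FPKM in control, 11.7, 10.5 and 9.26 FPKM at 0 hours and 13.7, 12.2 and 8.98 FPKM at 6 hours. The 3 lungs at 0 hours were all below the controls, with a log2 fold change of -0.42 (SE 0.17, adjusted p = 0.261). That call ended without Control library 1 (-0.34) or 2 (-0.45), without VILI 0 hours library 2 (-0.42) or 3 (-0.33), and with medians aligned (-0.31). At 6 hours the value was -0.29 (adjusted p = 0.351), and -0.42, a call, without VILI 6 hours library 1.

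Tead1, one of the TEAD factors that carry YAP and TAZ to DNA, gave the smallest limma p-values of the 10 genes at 0 hours and between the times (chr7:112679318-112906807, plus strand). It was at 24.8, 23.9 and 23.6 FPKM in control, 16.8, 19.4 and 17.0 FPKM at 0 hours and 21.1, 22.0 and 24.3 FPKM at 6 hours. No 0 hours library reached a library of either other group, and at 6 hours the level overlapped control. The log2 fold change was -0.45 (SE 0.10, 95% interval -0.67 to -0.23, adjusted p = 0.0865) at 0 hours, 0.734 times the control level. Against 0 hours, the 6 hours lungs stood at 0.34 (SE 0.10, adjusted p = 0.322), and against control at -0.10 (adjusted p = 0.557). The calls at 0 hours and between the times held with each of the 9 libraries left out and with medians aligned (-0.33 and 0.35). Over the alternatives its limma adjusted p at 0 hours ran from 0.0225 to 0.402.

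The single rows of Tead1 add a limit to that sum. Row 1 held 15.0 to 20.4 FPKM in 6 libraries but 0.133, 0.180 and 0.0892 FPKM in VILI 0 hours libraries 1 and 3 and VILI 6 hours library 2. In the same 3 libraries rows 3 and 4 together held 14.0, 15.0 and 19.4 FPKM, against 1.25 to 4.58 elsewhere. Rows 1, 3 and 4 thus traded values, and 1 row taken alone would show a change of -4.14 on the log2 scale at 0 hours that the sum does not. VILI 0 hours library 2, which kept row 1 at 15.6 FPKM, still had a sum of 19.4 FPKM, below every control; VILI 6 hours library 2, which did not, had 22.0. Because a row's FPKM is per its own length, such a trade can itself shift a sum, and its part in the change of Tead1 was not tested. The RNA 2310014F06Rik overlaps Tead1 on the other strand, at a mean of 0.797 FPKM, and, as for Ctgf, whether the counting used strand is not given. Row 8 fell with the sum at 0 hours (-0.96, SE 0.33, adjusted p = 0.354), a call that ended without Control library 3 or VILI 0 hours library 3.

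**Figure D2:**
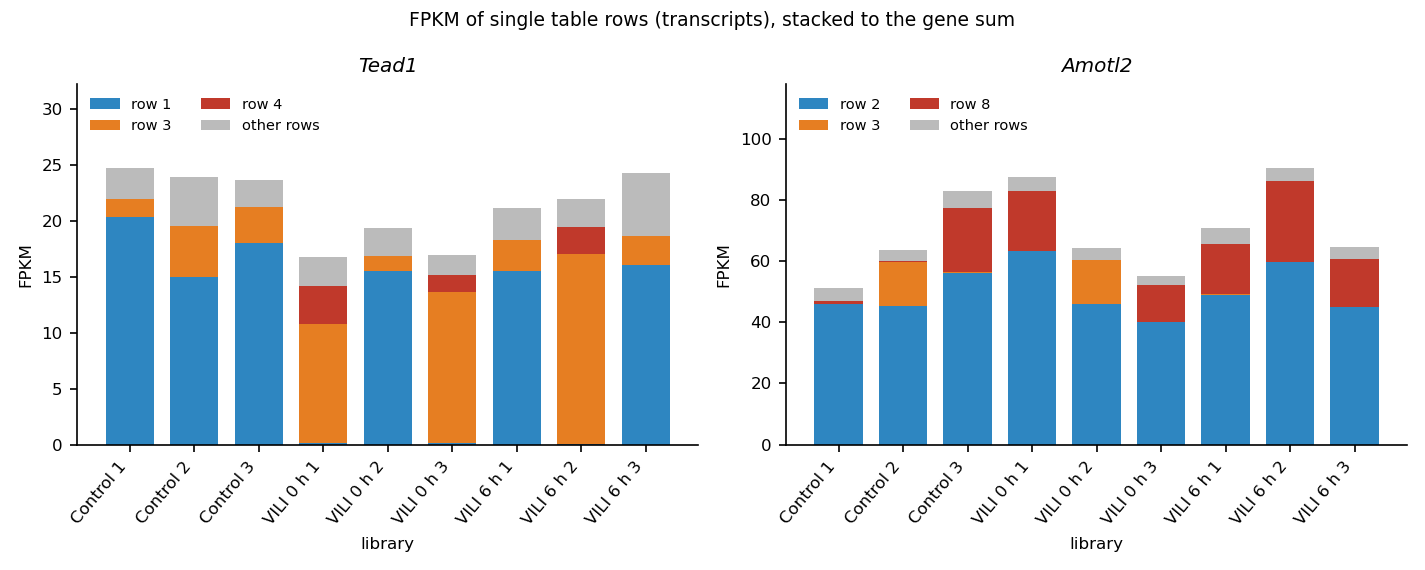
FPKM (y axis) of the rows of Tead1 and Amotl2 in each of the 9 libraries (x axis), stacked to the gene sum. Row 1 of Tead1 is replaced by rows 3 and 4 in VILI 0 hours libraries 1 and 3 and VILI 6 hours library 2, and row 3 of Amotl2 stands in place of row 8 in Control library 2 and VILI 0 hours library 2.

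Rows of Amotl2 also differed between libraries of 1 group. Its row 8 held 12.1 to 26.5 FPKM in 6 libraries and 0.802, 0.286 and 0.0374 FPKM in Control libraries 1 and 2 and VILI 0 hours library 2, and row 3 held 14.3 FPKM in each of Control library 2 and VILI 0 hours library 2 and at most 0.0721 FPKM in the rest. Row 3 thus stood in for row 8 in Control library 2 and VILI 0 hours library 2, whereas in Control library 1 both rows were low and no other row was raised in their place. Row 2, the main row, ran from 40.0 to 63.3 FPKM. Without rows 3 and 8 the gene stood at 50.6, 49.2 and 61.75 FPKM in control, 43.1 to 67.95 at 0 hours and 54.15, 64.1 and 48.8 at 6 hours, so that the groups still overlapped.

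The coactivators themselves were called in no comparison. Yap1 (chr9:7931999-8004596, minus strand) was at 32.2, 31.9 and 31.4 FPKM in control, 29.2, 30.3 and 31.1 FPKM at 0 hours and 32.1, 29.3 and 27.6 FPKM at 6 hours. Its 0 hours libraries lay just below the controls, with a log2 fold change of -0.08 (95% interval -0.27 to 0.12, adjusted p = 0.707). Wwtr1 (chr3:57455649-57575910, minus strand) was at 48.0, 51.7 and 53.1 FPKM in control, 49.3, 45.5 and 44.4 FPKM at 0 hours and 46.7, 53.3 and 44.7 FPKM at 6 hours, and its groups overlapped throughout. The intervals of all 3 comparisons of both genes ran between -0.35 and 0.27.

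The kinases Lats1 and Lats2 were not called as sums in any comparison. Lats1 (chr10:7681214-7716460, plus strand) ran from 17.9 to 19.7 FPKM in control, 16.7 to 19.1 at 0 hours and 18.3 to 21.5 at 6 hours. Lats2 (chr14:57689662-57758388, minus strand) was at 32.4, 33.3 and 39.3 FPKM in control, 30.5, 31.2 and 28.9 FPKM at 0 hours and 30.0, 41.0 and 34.6 FPKM at 6 hours. The 0 hours lungs lay below the controls, with a log2 fold change of -0.21 (95% interval -0.49 to 0.08, adjusted p = 0.462). The 6 hours lungs stood at 0.21 against those of 0 hours (adjusted p = 0.628), and at 0.32, a call, without VILI 6 hours library 1.

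Row 2 of Lats2, a minor row, was listed at 0 in the 3 control and the 3 VILI 6 hours libraries and at 0.799, 0.777 and 0.763 FPKM at 0 hours. It entered the rows tested only through its 0 hours values, and an exact 0 can be a failed estimate, so neither a fold nor a p-value is given. The row made up 2.49 to 2.64% of the gene sum where it was above 0. Row 6 of Lats2 fell at 0 hours, from 1.94, 2.19 and 2.65 FPKM to 1.24, 1.11 and 0.924 FPKM, with a log2 fold change of -0.99 (SE 0.22, adjusted p = 0.202). Row 5 was at 0.281, 0.511 and 1.12 FPKM in the control lungs, and at 6 hours at 0.198 FPKM in library 1 and listed at 0 in the others. Because of these exact 0 values, no p-value is given for it either. Of the 30 rows, 5 were called at 0 hours, 3 at 6 hours and 2 between the times, beside 11%, 13.2% and 7.4% of all rows. Row 2 of Lats2 is counted among the 5 and the 2, and row 5 of Lats2 among the 3. Leaving row 2 aside, no member row passed after adjustment in any comparison, beside 0.0509%, 0.0751% and 0.0214% of all rows.

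**Figure D3:**
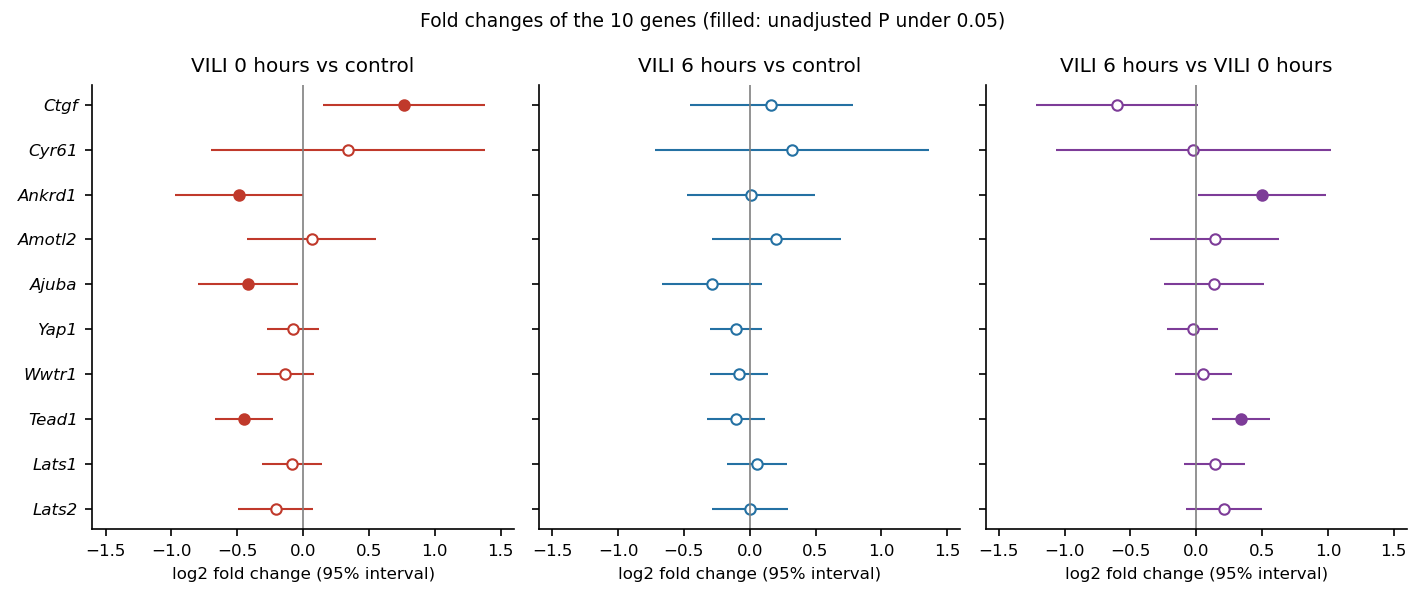
Log2 fold change (x axis) with its 95% interval from the limma fit for each of the 10 genes (y axis) in the 3 comparisons; filled points had an unadjusted P under 0.05. At 0 hours Ctgf lies right of 0 and Tead1, Ajuba and Ankrd1 left of it, at 6 hours every interval against control includes 0, and Cyr61 has the widest intervals.

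In VILI 6 hours vs control none of the 10 genes was called, beside 20.4% of all genes (8.17% higher, 12.2% lower, or 11.7% and 8.46% with medians aligned), none passed after adjustment (0.702% of all genes did), and the groups overlapped in all 10 (24.6% of all genes did not overlap). Their median log2 fold change was 0.0058. Other settings called 1 or 2: a term for the replicate number called Ajuba, and without VILI 6 hours library 1 both Ctgf and Ajuba were called. When VILI 6 hours was set against VILI 0 hours, 2 of the 10 were called, Tead1 and Ankrd1, both higher at 6 hours, beside 10% of all genes (5.06% higher, 4.94% lower), and 1 gene, Tead1, had groups that did not overlap (12.5% of all genes). In this comparison limma called no gene at all after adjustment, although 1938 had an unadjusted P under 0.05. Both comparisons with control share the control libraries, so their values are given side by side only.

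The other genes of the pathway were read from 7 lists with 57 genes. At 0 hours 16 of the 57 were called, 8 higher and 8 lower, where 16.2% of all genes were called. At 6 hours 19 were called, 9 higher and 10 lower (20.4% of all genes), and between the times 4, 2 higher and 2 lower (10% of all genes). With medians aligned the calls were 13 higher and 6 lower at 0 hours, 14 and 8 at 6 hours, and 1 and 4 between the times, so the balance of directions depended on the scaling. The balance over all genes moved too. Medians aligned, 10% of them were called higher and 6.36% lower at 0 hours, and 11.7% and 8.46% at 6 hours. Between the times these shares were 4.92% and 5.08%. The median log2 fold changes of the 57 genes were -0.026, 0.0019 and 0.033. Of the calls against control, 9 of 16 and 9 of 19 held with each library left out in turn, and all kept their direction.

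The CCN family held the largest changes. Its 4 genes beside Ctgf and Cyr61 were Nov (Ccn3), Wisp1 (Ccn4), Wisp2 (Ccn5) and Wisp3 (Ccn6), and Wisp1 and Wisp2 fell while Nov rose. Wisp1, a target of WNT signalling, was at 5.38, 6.05 and 5.97 FPKM in control, 1.08, 1.03 and 0.483 FPKM at 0 hours and 2.85, 1.42 and 1.14 FPKM at 6 hours. Every ventilated lung was below every control lung, with log2 fold changes of -2.68 (SE 0.36, adjusted p = 0.0344) at 0 hours and -1.73 at 6 hours (adjusted p = 0.0647). In the main fit Wisp1 was the single pathway gene that passed after adjustment, at 0 hours only. Over the alternatives the adjusted p at 0 hours ran from 0.00149 to 0.191. Its level was higher at 6 hours than at 0 hours (0.95, adjusted p = 0.432), a call that ended without VILI 0 hours library 3 (0.62) or VILI 6 hours library 1 (0.58).

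Wisp2, a CCN protein without the C-terminal domain of its relatives, was at 30.5, 25.4 and 25.8 FPKM in control, 6.15, 7.69 and 6.19 FPKM at 0 hours and 17.7, 5.80 and 7.59 FPKM at 6 hours. Its ventilated libraries were again all below the controls, at -2.01 (SE 0.34, adjusted p = 0.0549) and -1.55 (adjusted p = 0.0705), and both calls held with each library left out. VILI 6 hours library 1 lay nearest to control in both genes. Nov was at 3.12, 3.03 and 3.20 FPKM in control, 4.85, 3.90 and 4.36 FPKM at 0 hours and 3.94, 4.77 and 6.32 FPKM at 6 hours, which gave 0.47 at 0 hours (adjusted p = 0.25) and 0.64 at 6 hours (adjusted p = 0.12) on the log2 scale. The call at 0 hours ended without any of the 3 control libraries or VILI 0 hours library 1 or 3, and that at 6 hours held with each library left out. Wisp3 was at 0.0522 to 0.227 FPKM over all libraries and was not called.

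**Figure D4:**
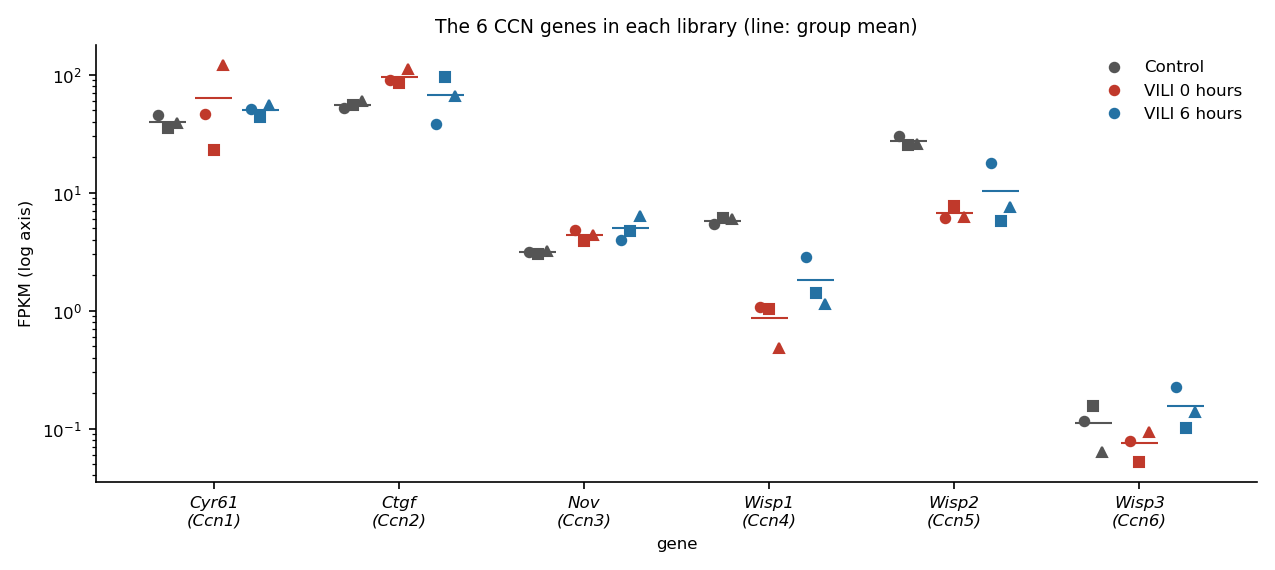
FPKM on a log axis of the 6 CCN genes in each library, with the group mean as a line. Wisp1 and Wisp2 lie lower in all 6 ventilated libraries than in the controls and Nov higher, Ctgf is higher in the 3 VILI 0 hours libraries, the groups of Cyr61 overlap, and both ventilated groups of Wisp3 overlap control.

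Of the 17 genes of a YAP/TAZ target signature other than the 10, 5 were called higher and 3 lower at 0 hours, and 6 higher and 3 lower at 6 hours, and none passed after adjustment. Of all genes, 6.81% were called higher and 9.35% lower at 0 hours, and 8.17% and 12.2% at 6 hours. With medians aligned 6 of the 17 were higher and 2 lower at each time. Of all genes, 10% were then called higher and 6.36% lower at 0 hours, and 11.7% and 8.46% at 6 hours. Called genes thus lay in both directions, with medians over the 17 of 0.11 and 0.015. Gadd45a, a stress-induced growth arrest gene, was at 6.47 to 7.06 FPKM in control, 9.42 to 13.8 FPKM at 0 hours and 9.07 to 13.9 FPKM at 6 hours (0.75, adjusted p = 0.107, and 0.80, adjusted p = 0.0849). Nuak2, a kinase of the AMPK family, was at 4.155 to 5.13 FPKM in control, 6.46 to 9.42 at 0 hours and 7.26 to 10.7 at 6 hours (0.73, adjusted p = 0.114, and 0.86, adjusted p = 0.0728). Neither gene had a ventilated library within the control range, and these calls held with each library left out.

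F3, tissue factor, which starts coagulation, was at 16.5 to 19.8 FPKM in control and at 26.5 to 44.15 at 0 hours and 20.1 to 65.7 at 6 hours (0.97, adjusted p = 0.249, and 1.10, adjusted p = 0.164). Its call at 0 hours ended without any control library or VILI 0 hours library 1 or 3, and at 6 hours without VILI 6 hours library 2 or 3. Igfbp3, a binding protein of insulin-like growth factors, rose at 0 hours from 13.3, 14.2 and 13.4 FPKM to 31.0, 16.8 and 31.1 FPKM (0.89, adjusted p = 0.112), in every leave-one-out fit as well. Myof, a ferlin of membrane repair, rose by 0.27 (adjusted p = 0.256) and 0.29 (adjusted p = 0.18), and Asap1 and Dock5 by 0.40 (adjusted p = 0.217) and 0.34 (adjusted p = 0.24) at 6 hours. These last calls ended when single libraries were left out, 5 and 2 of them for Myof at 0 and 6 hours, 4 for Asap1 and 8 for Dock5.

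Lower genes of the signature were led by Foxf2, a forkhead factor of lung mesenchyme. It was at 21.25, 19.0 and 16.4 FPKM in control, 8.15, 10.7 and 8.53 FPKM at 0 hours and 17.3, 8.475 and 6.13 FPKM at 6 hours (-1.04, adjusted p = 0.161, and -0.95, adjusted p = 0.156). VILI 6 hours library 1 lay within the control range, the other ventilated libraries below it, and both calls held with each library left out. Tgfb2, a TGF-beta ligand, fell at 0 hours (-0.47, adjusted p = 0.13) and Rbms3, an RNA-binding protein, at 6 hours (-0.59, adjusted p = 0.112), in every leave-one-out fit. Arhgef17 fell at 0 hours (-0.33, adjusted p = 0.245) but not without Control library 1 or VILI 0 hours library 2 or 3 or with medians aligned (-0.22), and Crim1 at 6 hours (-0.25, adjusted p = 0.17) but not without Control library 1 or 3 or with medians aligned (-0.13). Rbms3 was also lower at 6 than at 0 hours (-0.38, adjusted p = 0.476), a call that ended without any of 6 libraries.

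**Figure D5:**
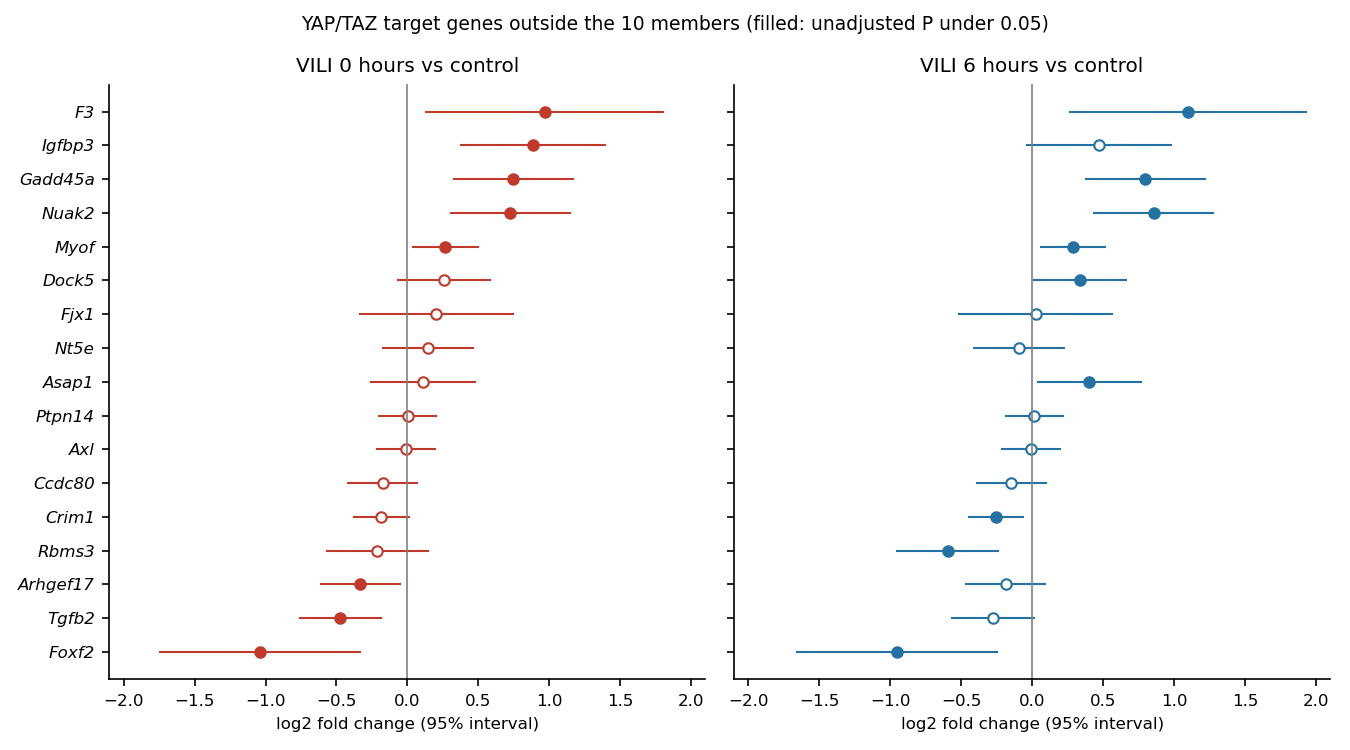
Log2 fold change (x axis) with its 95% interval from the limma fit for 17 YAP/TAZ target genes (y axis, ordered by the value at 0 hours) at both times; filled points had an unadjusted P under 0.05. Called genes lie on both sides of 0 at both times, with F3 at the top and Foxf2 at the bottom.

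Among 15 Hippo kinases and regulators, 2 were called higher (Tnik and Frmd6) and 1 lower (Stk4) at 0 hours and 2 lower (Stk4 and Taok2) at 6 hours, where 16.2% and 20.4% of all genes were called. Medians aligned, Taok3 and Mink1 were also called higher at 6 hours. Stk4, which encodes MST1, the kinase that activates LATS, was at 51.1, 45.9 and 48.75 FPKM in control, 28.6, 34.4 and 28.6 FPKM at 0 hours and 45.8, 24.4 and 26.6 FPKM at 6 hours (-0.67, adjusted p = 0.17, and -0.65, adjusted p = 0.149). All ventilated lungs were below the controls, VILI 6 hours library 1 narrowly, and the call at 6 hours ended without VILI 6 hours library 2 (-0.47). Frmd6, a FERM protein upstream of the kinases, was at 22.45 to 23.4 FPKM in control, 28.3 to 30.7 FPKM at 0 hours and 14.8 to 21.65 FPKM at 6 hours. It was higher at 0 hours than in control (0.37, adjusted p = 0.23) and lower at 6 hours than at 0 hours (-0.66, adjusted p = 0.189). The second call held with each library left out, and the first ended without Control library 1 or 2 or VILI 0 hours library 1 or 3. Tnik, a kinase of the MAP4K group, rose at 0 hours (0.80, adjusted p = 0.248, but not called without Control library 2 or 3 or VILI 0 hours library 3), and Taok2 fell at 6 hours (-0.33, adjusted p = 0.151) in every leave-one-out fit. The other Hippo genes were not called.

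Of the TEAD factors beside Tead1, Tead2 was lower at both times (-0.39, adjusted p = 0.248, and -0.40, adjusted p = 0.181), from 4.97 to 5.72 FPKM in control to 4.01 to 4.26 at 0 hours and 3.37 to 4.61 at 6 hours. With medians aligned these were -0.27 and -0.28 and no longer called, and the calls also ended without Control library 1 or 2, VILI 0 hours library 2 or 3 or VILI 6 hours library 3. Tead3 was higher at 6 hours than in control (0.58, adjusted p = 0.16) and than at 0 hours (0.47, adjusted p = 0.472), but not without VILI 6 hours library 2 (0.40 and 0.28), nor, against control, without Control library 3, nor, against 0 hours, without Control library 1 or any VILI 0 hours library or with medians aligned (0.48). Vgll4, which competes with YAP for TEAD, was lower at 6 hours (-0.54, adjusted p = 0.179), and its call ended without Control library 1 or 2 or VILI 6 hours library 2 or 3. Tead4 and Vgll3 were not called, though Tead4 was called higher at 6 hours (0.37) with medians aligned.

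Amot, the angiomotin that gives the family of Amotl2 its name, was at 4.60, 4.39 and 4.94 FPKM in control, 2.90, 2.74 and 3.055 FPKM at 0 hours and 3.48, 2.67 and 1.95 FPKM at 6 hours. All ventilated libraries were below the controls (-0.66, adjusted p = 0.161, and -0.80, adjusted p = 0.0972), in each leave-one-out fit too, whereas Amotl1 and the LIM genes Limd1 and Wtip were not called. Of 10 targets of SRF and MRTF, the other actin-linked stretch pathway, none was called at 0 hours (16.2% of all genes) and 1 at 6 hours (20.4% of all genes), Actg2, smooth muscle actin gamma (0.93, adjusted p = 0.226), at 12.4 to 34.7 FPKM against 9.575 to 14.1 in control. That call ended without Control library 2 or 3, VILI 0 hours library 2 or VILI 6 hours library 1 or 2. The count depended on the scaling: with medians aligned, 4 of the 10 were called higher at 0 hours, Acta2 (0.58), Tagln (0.29), Cnn1 (0.63) and Actg2 (0.83), and 3 at 6 hours, Acta2 (0.62), Cnn1 (0.74) and Actg2. Of these, Acta2, Tagln and Cnn1 are also markers of smooth muscle. With medians aligned, 10% of all genes were called higher at 0 hours and 11.7% at 6 hours. The Ankrd1 relatives Ankrd2, at 0 to 0.313 FPKM, and Ankrd23, at 1.70 to 2.82 FPKM, were not called.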

How the data were processed

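Total RNA of 9 mouse lungs was sequenced as rRNA-depleted libraries, although the sample records name a different library kit. Per the labels and the methods, the authors cleaned the reads (adapters, poly-N, low quality), aligned them with TopHat2 2.0.9 and Bowtie2 2.0.6 to GRCm38, assembled transcripts with Scripture and Cufflinks, and deposited FPKM per transcript from Cuffdiff 2.1.1. The table holds 60108 rows without transcript IDs. The study lists read totals per library, which were not used here; the table of FPKM holds no counts behind single values, so precision comes from the spread of 3 libraries per group; column sums were 366400 to 388500 FPKM. The study had 3 mice per group, so p-values measure the spread between single lungs.

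Gene IDs were named by GENCODE M21 (23580 of 23713 Ensembl IDs matched). FPKM were summed per gene, and log2(FPKM + 0.1) of genes or rows with a mean of at least 0.1 FPKM was fitted in R 4.3.3 with limma 3.58.1 (eBayes with a mean trend after lmFit), all 9 libraries and 3 groups in 1 fit, the main fit. Fold changes of genes near 0.1 FPKM are understated on this scale. Exact permutation covered all 20 divisions of 6 libraries. The member genes and the lists (7 of the pathway, 9 of cell type markers, from general knowledge) were chosen with earlier results of these data known. Genes named are the 10 members, list genes called or at the extremes of a list, and the 3 genes most correlated with Ctgf, Cyr61 or Ankrd1. List genes called only with medians aligned, genes that overlap a member, Amotl1, Wtip, Vgll3, Wisp3 and Sftpc were named in addition, after their values were seen. Alternatives were pseudocounts of 0.01 and 1, a mean of at least 1 FPKM, no filter, medians aligned, only the 6 libraries compared, a replicate block, no trend, the row with the highest mean, and each library left out. On simulated data of VILI 0 hours vs control (19378 genes, 200 changed by a log2 of 2), 99.5% of changed genes had a P under 0.05, 92.5% passed after adjustment, and 5.16% of unchanged genes had a P under 0.05. In the main fit the 10 genes had smaller values, the largest being 0.77 (Ctgf at 0 hours against control). Recovery at such sizes was not tested. Python 3.11.15, numpy 2.4.6, pandas 2.3.3 and matplotlib 3.10.9 were also used.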

Additional observations from a re-analysis of the deposited data

Results flagged for a closer look

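Tead1 and Ankrd1 were flagged because both were called between the times after ventilation. The change of Tead1 against control at 6 hours minus that at 0 hours was 0.34 on the log2 scale (SE 0.10, limma adjusted p = 0.322; 0.28 to 0.41 over the leave-one-out fits), with all 3 VILI 6 hours libraries above all 3 VILI 0 hours libraries. For Ankrd1 it was 0.50 (SE 0.22, limma adjusted p = 0.486; 0.26 to 0.69 over the leave-one-out fits), and the libraries of both times overlapped. Neither passed the correction over all genes, and 10% of all genes had an unadjusted P under 0.05 in this comparison. The call of Ankrd1 ended in most leave-one-out fits and with medians aligned. That of Tead1 ended only with the row of the highest mean.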

How the results depend on the processing

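Of 540 fold changes of the 10 genes under an alternative, 475 kept their direction and their side of the threshold (an unadjusted P of 0.05), 35 lost and 7 gained a call, and 23 turned direction, all in values called under neither setting. The FPKM hold no counts behind single values, and 3 libraries a group limit what can be called. At 0 hours (against control, as at 6 hours), 2 of the 10 genes in place of 4 were called with medians aligned, without a trend (Ctgf and Tead1 in both) and with the row of the highest mean (Ajuba and Ctgf). Between the times, 1 in place of 2 (Tead1) was called without a filter, with medians aligned, with only the 6 libraries compared and without a trend, and 0 with the row of the highest mean. Of the member rows, 1 in place of 3 was called at 6 hours at a mean of at least 1 FPKM, and between the times 1 in place of 2 was called with that filter, and 4 with a pseudocount of 0.01 or no filter. Of the pathway genes, 2 in place of 4 were called between the times with only the 6 libraries compared. Fewer rows or libraries enter under the stricter filter and the smaller fit; the cause of the other shifts was not tested.

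Leaving out 1 library at a time gave 1 to 4, 0 to 2 and 1 to 3 called members at 0 hours, at 6 hours and between the times, in this order, 3 to 8, 2 to 5 and 2 to 5 called rows, and 10 to 18, 13 to 25 and 2 to 11 called pathway genes. The highest pathway count in each comparison came without VILI 6 hours library 1, and the lowest at 0 hours without Control library 1 or 2 or VILI 0 hours library 3. Median alignment shifted all genes by 0.11 and 0.13 in the comparisons with control. It turned Yap1 to 0.039 and Lats1 to 0.029 at 0 hours, and Yap1 to 0.024, Wwtr1 to 0.045 and Tead1 to 0.023 at 6 hours; the row with the highest mean turned Amotl2 at 0 hours to -0.0055. Uncalled values that turned with a library left out spanned -0.12 to 0.24 (Amotl2) and -0.28 to 0.90 (Cyr61) at 0 hours. At 6 hours they spanned -0.015 to 0.10 (Lats1), -0.11 to 0.11 (Lats2), -0.15 to 0.51 (Ctgf) and -0.12 to 0.13 (Ankrd1). Between the times they spanned -0.084 to 0.023 (Yap1), -0.021 to 0.11 (Wwtr1), -0.0096 to 0.32 (Amotl2) and -0.58 to 0.60 (Cyr61).

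The replicate numbers do not pair the libraries: deviations of libraries with the same number correlated at -0.22 to 0.017. With a replicate block, 1 member was called at 6 hours (Ajuba, -0.29) in place of 0, Ctgf was called between the times (-0.60), and 4 members were called at 0 hours.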
